A study of Mus musculus with 2 samples.

Results

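The cells described here were islet cells that carried the RNA of both somatostatin (Sst) and pancreatic polypeptide (Ppy). They were chosen by their hormone counts alone, among cell barcodes with more than 2500 detected genes and under 10% of their UMIs (molecular tags that each mark 1 captured transcript) in mitochondrial genes. Per 10000 UMIs of the barcode, a cell had to hold at least 40 of Sst and at least 150 of Ppy, with fewer than 300 of insulin (Ins1 and Ins2 together) and fewer than 100 of glucagon (Gcg). Of 8926 kept barcodes in both libraries, 415 met these limits, and they are called double-positive cells below. They numbered 150 of 4747 kept barcodes in the control library and 265 of 4179 in the TBL/RβKO library.

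Islets came from mice aged 5 weeks, and each group gave 1 library of 150 islets pooled from 4 mice and cultured overnight. TBL/RβKO mice carried Cre recombinase knocked into Ins1, a gene active in β-cells, and loxP-flanked alleles of the co-factor genes Tbl1x and Tbl1xr1. The controls, labelled wildtype, were littermates without Cre. Libraries were made with 3′ droplet chemistry. With 1 library per group no test between groups was possible, cells of 1 library are not replicates, and every interval below covers counting error only, at 95%.

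δ-cells are the somatostatin cells of the islet, and their hormone restrains insulin and glucagon release from the neighbouring β- and α-cells. The transcription factor Hhex maintains the identity of δ-cells, and retinol binding protein 4 (Rbp4) is abundant in them in mice. Pancreatic polypeptide marks a separate, rarer endocrine type, the PP-cell (γ-cell). Pyy, which encodes peptide YY, is a close relative and chromosomal neighbour of Ppy.

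Sst (ENSMUSG00000004366) lies on the minus strand of GRCm39 at chr16:23707321-23711733 and Ppy (ENSMUSG00000017316) on the minus strand at chr11:101990756-101992145, with 5356 bases between Ppy and Pyy (ENSMUSG00000017311, chr11:101997502-101998658, minus strand). The 250 bases upstream of the start of each hormone gene that defines these cells are shown because RNA of both genes was counted in the same cells. They come from RefSeq (GRCm38.p6) and were placed by exact match on GRCm39, at chr16:23709595-23709844 for Sst and chr11:101992146-101992395 for Ppy. Both windows are written 5′ to 3′ on the strand of the gene, and the Sst window lies inside the longest annotated Sst transcript. Capitals mark a cyclic AMP response element (TGACGTCA, bases -48 to -41 from the start) and a TAAT core (bases -95 to -92) in Sst and a TATA box (TATAAA, bases -31 to -26) in Ppy.
Sst promoter: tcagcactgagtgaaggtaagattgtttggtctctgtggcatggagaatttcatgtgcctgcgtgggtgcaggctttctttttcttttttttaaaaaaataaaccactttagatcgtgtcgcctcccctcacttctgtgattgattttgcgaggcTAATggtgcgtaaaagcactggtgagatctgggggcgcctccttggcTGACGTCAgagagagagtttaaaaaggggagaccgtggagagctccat
Ppy promoter: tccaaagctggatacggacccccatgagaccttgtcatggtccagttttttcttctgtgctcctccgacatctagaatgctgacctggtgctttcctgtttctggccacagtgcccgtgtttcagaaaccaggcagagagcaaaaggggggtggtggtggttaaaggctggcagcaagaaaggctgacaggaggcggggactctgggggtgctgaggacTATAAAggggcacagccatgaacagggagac
These 3 motifs were searched on both strands and overlapped none of each other in these windows. Of 32851 promoter windows of this length, 508 (1.55%) held TGACGTCA, 4063 (12.4%) TATAAA and 18041 (54.9%) TAAT. Neither TGACGTCA nor TAAT was in the Ppy window, and TATAAA was not in the Sst window.

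The hormone levels chose the cells and are given as a description. The median Sst level of the double-positive cells was 765 per 10000 UMIs in control (range 47.2 to 1864) and 736 in TBL/RβKO (44.5 to 1962). Their median Ppy level was 429 (152 to 3926) and 423 (152 to 3547). These medians thus lay close together in both libraries, whereas Ppy was at 1500 or more in 21 of 150 control and 10 of 265 TBL/RβKO cells. Sst cells under the Ppy limit, with the same limits on insulin and glucagon (92 control and 162 TBL/RβKO cells, called Sst cells below), had median Sst of 977 and 907 and median Ppy of 24.1 and 31.4. Ppy cells under the Sst limit (138 and 241, called Ppy cells below) had median Ppy of 4116 and 3325 and median Sst of 0.566 and 0.747. The typical double-positive cell therefore held somewhat less Sst than an Sst cell and far less Ppy than a Ppy cell. Sst was at or above Ppy in 108 of 150 control cells (72.0%, exact binomial interval 64.1 to 79.0) and 190 of 265 TBL/RβKO cells (71.7%, 65.9 to 77.0).

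**Figure D1:**
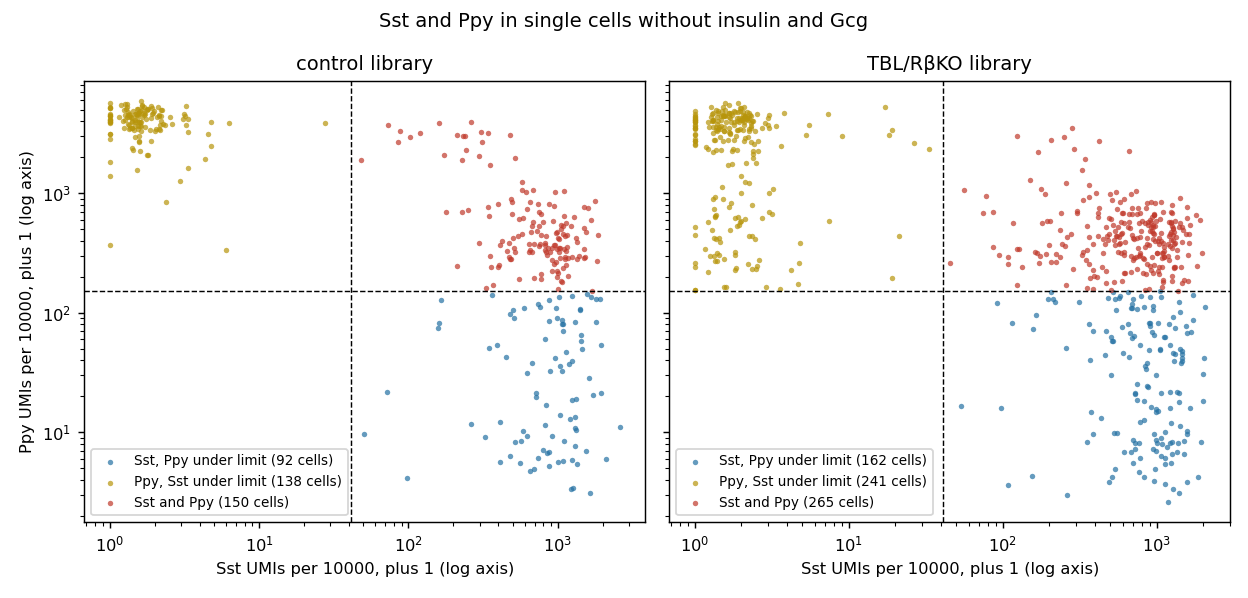
Each point is 1 cell, with its Sst on the x axis and its Ppy on the y axis, both in UMIs per 10000 plus 1 on log axes, and dashed lines mark the limits of 40 and 150. Most of the 150 control and 265 TBL/RβKO double-positive cells sit near the median Ppy levels of 429 and 423, above a continuous tail of Sst cells, and 21 and 10 cells at 1500 or more reach the Ppy levels of Ppy cells.

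The double-positive cells made up 3.16% of kept control barcodes (2.68 to 3.70) and 6.34% of kept TBL/RβKO barcodes (5.62 to 7.12), a difference of 3.18 percentage points (2.30 to 4.09). Among all cells with Sst at its limit, and insulin and glucagon under theirs, they were 150 of 242 in control (62.0%, 55.5 to 68.1) and 265 of 427 in TBL/RβKO (62.1%, 57.3 to 66.7). That difference was 0.0774 points (-7.45 to 7.77). Among all cells with Ppy at its limit, and insulin and glucagon under theirs, they were 52.1% of 288 and 52.4% of 506, a difference of 0.288 points (-6.89 to 7.49). The Ppy cells under the Sst limit were not alike in the libraries, however. Of these, 133 of 138 in control and 169 of 241 in TBL/RβKO held Ppy at 1500 or more. The share of double-positive cells among those 242 and 427 cells was thus close in both libraries while their share of all barcodes was not. The number of barcodes with insulin over its limit and the other hormones under theirs was 2282 in control and 559 in TBL/RβKO. A larger number of these cells and a smaller number of others cannot be told apart in a share of barcodes. The limits on insulin and glucagon set these shares as well. Among all cells with Sst at its limit, whatever their insulin and glucagon, Ppy reached its limit in 297 of 659 (45.1%, 41.2 to 49.0) and 560 of 897 (62.4%, 59.2 to 65.6), a difference of 17.4 points (12.4 to 22.2).

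Hormone RNA is abundant enough in islets to be caught free in droplets. In 166 control and 275 TBL/RβKO barcodes with macrophage, stromal, endothelial or B-cell markers, Ppy reached 150 in 1 (0.602%) and 11 (4.00%), and Sst reached 40 in 4 (2.41%) and 7 (2.55%). No double-positive cell reached the limit of 20 UMIs per 10000 for markers of these types (0 of 150 and 0 of 265, upper limits 2.43% and 1.38%). Macrophage markers summed to 85.6 and 50.6 CPM (UMIs per 1000000 UMIs summed over the cells) in double-positive cells, 222 and 76.5 in Sst cells and 4633 and 2050 in the non-endocrine barcodes, with C1qc at 0 in control double-positive cells and C1qb at 0 in those of TBL/RβKO. Their stromal markers summed to 1.49 and 11.1 CPM, with Col1a1, Col3a1 and Dcn at 0 in control and none of the 5 in TBL/RβKO, their endothelial markers to 1.71 and 3.58 (Flt1 at 0 in control and Kdr in TBL/RβKO) and their B-cell markers to 2.77 and 17.3 (Cd79b, Ighm and Ms4a1 at 0 in control, none in TBL/RβKO). Ductal markers summed to 249 and 344 CPM against 252 and 403 in Sst cells. Acinar markers summed to 170 and 132 CPM, of which Cela1, an elastase gene, gave 169 and 132, while 5 and 6 of the 8 acinar genes were at 0. Insulin stood at a median of 89.8 per 10000 in control double-positive cells and 17.1 in TBL/RβKO, beside 99.4 and 16.4 in Sst cells and 85.0 and 14.3 in the non-endocrine barcodes. No double-positive barcode was shared between the libraries, although 14 of all deposited barcodes were, and the barcodes of 2 control double-positive cells also occurred in the other library outside this class.

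Double-positive cells had a median of 22360 UMIs in control (9232 to 168562) and 23113 in TBL/RβKO, with 5338 and 5281 detected genes. The fraction with 6000 genes or more was 31.3% (24.0 to 39.4) in control and 34.7% (29.0 to 40.8) in TBL/RβKO. In Sst cells it was 10.9% and 22.2%, and in Ppy cells 15.9% and 27.0%. Barcodes that hold more than 1 cell can carry hormones of several types, so the calls below are also given for cells under 6000 genes. Scrublet marked 0 of 150 and 8 of 265 double-positive cells when its highest scores were taken at 0.8% per 1000 barcodes, and its own threshold marked 81 control barcodes and 1 TBL/RβKO barcode (0.0187%), so that it had not worked in the latter library.

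The markers of the cell type were checked first. Hhex was at 164 CPM in control double-positive cells (153 to 176) and 133 in TBL/RβKO, beside 220 and 167 in Sst cells, and at 1.12 and 0.822 CPM in Ppy cells. Rbp4 was at 4069 and 3272 CPM, 4974 and 3565 in Sst cells and 144 and 120 in Ppy cells. Both genes lay within 2-fold of the Sst cells and far above the Ppy cells. After every cell was thinned to 5000 UMIs, Hhex had a UMI in 57.3% of control (49.0 to 65.4) and 52.5% of TBL/RβKO double-positive cells, 59.8% and 57.4% of Sst cells, 0.725% and 0.415% of Ppy cells and 12.7% and 10.5% of non-endocrine barcodes. Without thinning the double-positive shares were 92.7% and 93.6%, and no cell was left out by thinning. The label of δ-cells with pancreatic polypeptide thus held for Hhex and Rbp4.

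**Figure D2:**
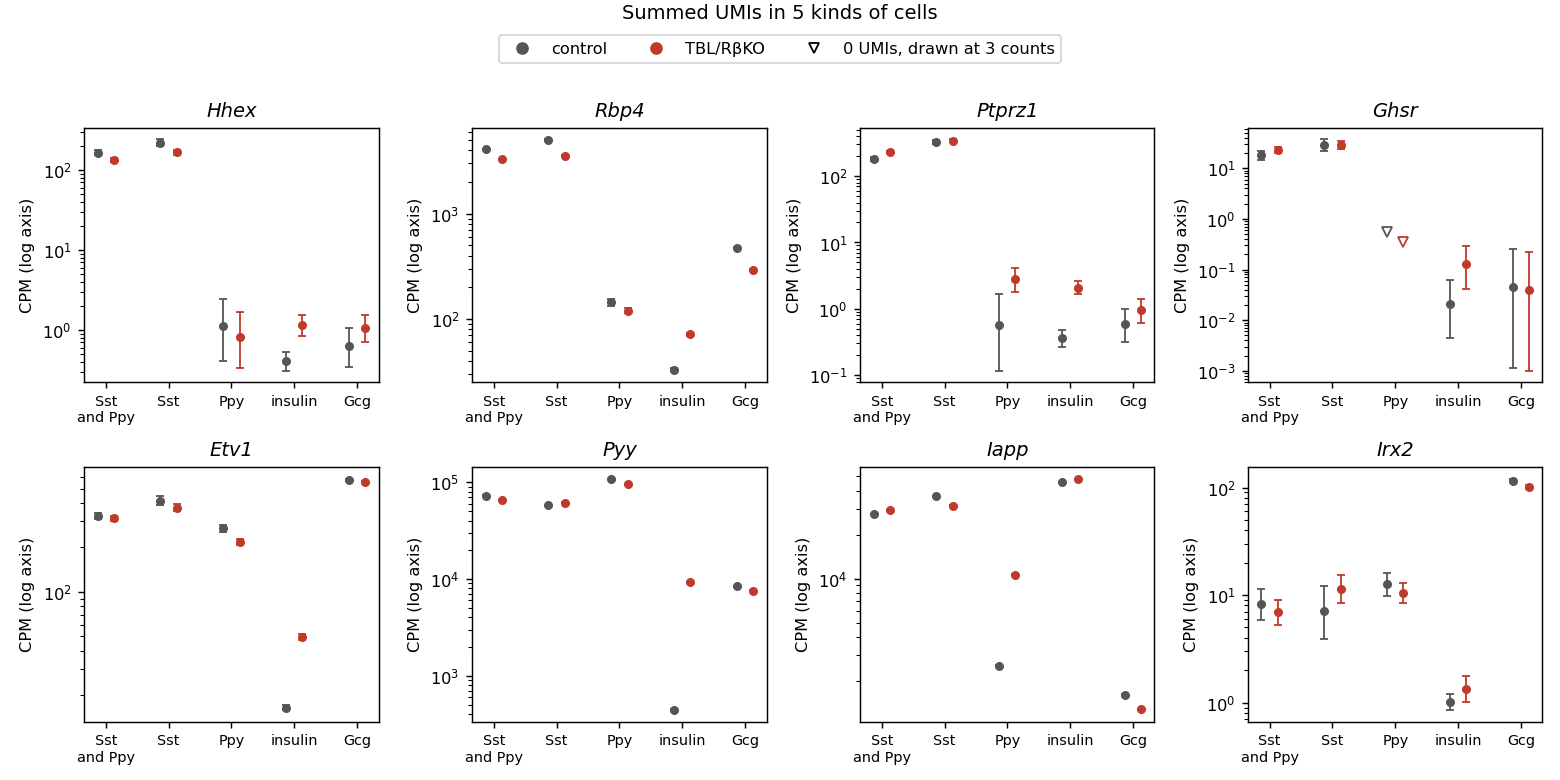
Summed UMIs of 8 genes as CPM on log axes in double-positive cells, Sst cells, Ppy cells, insulin cells and Gcg cells, in control (grey) and TBL/RβKO (red), with exact Poisson intervals for counting error. Hhex, Rbp4, Ptprz1 and Ghsr lie near the level of Sst cells, and Pyy and Etv1 are high in all 3 Sst and Ppy classes. Open triangles stand for 0 UMIs and are drawn at 3 counts.

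The double-positive cells were not uniform. In the 21 control and 10 TBL/RβKO cells with Ppy at 1500 or more per 10000, Hhex was at 61.7 and 77.6 CPM, against 212 and 137 CPM in the other 129 and 255. Rbp4 was at 1368 and 1834 CPM in the cells with high Ppy and 5330 and 3397 in the others. Both δ-cell genes were thus lower in the cells with the most Ppy. The cells with high Ppy had a median of 70069 and 61682.5 UMIs and 7869 and 7484 genes, against 21289 and 22797 UMIs and 5177 and 5263 genes in the others. All cells with Sst at its limit, and insulin and glucagon under theirs, were also grouped by Ppy. With Ppy from under 10 up to 1500 per 10000, Hhex lay between 190 and 251 CPM in control and between 132 and 197 in TBL/RβKO. Etv1, a PP-cell gene, was at 296 and 217 CPM in the cells with high Ppy and 340 and 325 in the others, and Pyy at 97950 and 85260 against 61272 and 63982 CPM. Whether the cells with high Ppy were single cells was not tested.

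**Figure D3:**
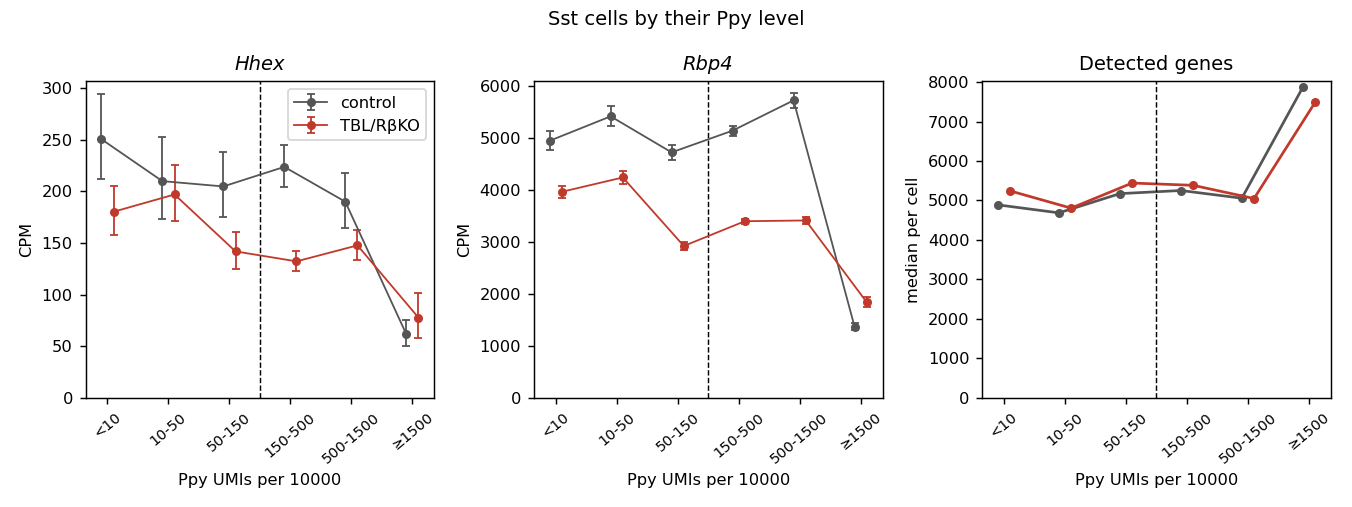
CPM of Hhex and Rbp4 with exact Poisson intervals, and the median number of detected genes, in control (grey) and TBL/RβKO (red). The cells are all those with Sst at its limit and insulin and Gcg under theirs, by their Ppy in UMIs per 10000. A dashed line marks the Ppy limit of 150. Hhex and Rbp4 are lowest in the last bin, which holds 21 control and 10 TBL/RβKO cells with 7869 and 7484 genes.

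A second split used the same hormones and overlapped the split at Ppy of 1500. All 21 control cells with Ppy at 1500 or more held more Ppy than Sst. The second split set the cells with Sst at or above Ppy beside the 42 control and 75 TBL/RβKO cells with more Ppy. Rbp4 was at 5551 and 4141 CPM in the former and 2180 and 1971 in the latter. Ptprz1, a receptor tyrosine phosphatase gene, was at 262 and 285 against 76.2 and 147 CPM. The former had median UMIs of 21240 and 21779.5 and the latter 42082.5 and 40173.

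The Ppy limit cut through a continuum of Ppy levels, and the Sst limit did not. The 9 control and 18 TBL/RβKO Sst cells just under the Ppy limit, at 120 to 150, had Hhex at 162 and 137 CPM and Rbp4 at 3480 and 2304. The 5 and 13 cells just over it, at 150 to 180, had Hhex at 225 and 131 CPM and Rbp4 at 1930 and 2549. At the Sst limit few cells lay nearby, with 1 and 3 Ppy cells at 20 to 40 and 2 and 4 double-positive cells at 40 to 80. Hhex was at 0 and 17.6 CPM (2 UMIs) below that limit and at 68.5 and 91.9 CPM above it.

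The targeted genes and Cre were examined in these cells although the deletion is made in β-cells. Cre on its coding strand had 0 UMIs in control double-positive cells and 8 UMIs in TBL/RβKO (0.925 CPM), in 4 cells, against 38.4 CPM in the insulin cells of TBL/RβKO. In the non-endocrine barcodes of that library it had 12 UMIs (1.41 CPM, 0.728 to 2.46) in 6 of 275 barcodes (2.18%, against 1.51% of double-positive cells). Over all double-positive cells the level thus did not lie above this background. All 8 UMIs lay in the 75 cells with Ppy above Sst, at 2.31 CPM (0.997 to 4.55) in 5.33% of cells. The source of these UMIs was not tested. Of the 8 UMIs 7 lay in 3 cells with insulin at 50 or more per 10000. Tbl1x (GRCm39 chrX:76554141-76706597, plus strand) was at 135 CPM in control and 289 in TBL/RβKO double-positive cells, a log2 ratio of 1.10 (0.98 to 1.23). Tbl1xr1 (chr3:22129947-22270770, plus strand) was at 46.5 and 109 CPM, 1.22 (1.01 to 1.44). The deleted exons are not given in the sources used here, so 3′ UMIs of either gene do not check the deletion. In cells under 6000 genes the log2 ratios were 0.22 for Tbl1x and 0.47 for Tbl1xr1. Tbl1x was at 477 CPM in the 58 TBL/RβKO double-positive cells with insulin at 50 or more per 10000 and 194 in the other 207, and at 303 CPM in insulin cells of that library. Of the other genes of the corepressor complex, Ncor1 (0.35), Hdac3 (-0.09) and Gps2 (-0.13) lay within 2-fold.

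The first comparison asked what set double-positive cells apart from Sst cells, in the same library. Very few genes did. Of 6740 genes with a mean of at least 20 CPM, 5 were 2-fold or more higher in both libraries (0.0742%) and 3 were lower (0.0445%), and the median log2 ratio over all genes was -0.17 in control and -0.08 in TBL/RβKO. Taken alone, the control library gave 15 higher (0.223%) and 28 lower genes (0.415%) and the TBL/RβKO library 13 (0.193%) and 8 (0.119%). With hormones and mitochondrial genes left out of the total, every log2 ratio shifted by 0.16 and 0.07. More genes, 7774, then reached the mean of 20 CPM, and of these 8 were higher and 3 lower. Among the 5 higher genes were Mctp2, a calcium-binding membrane protein, Arhgap6, a GTPase-activating protein, Chrm3, the muscarinic acetylcholine receptor M3, and Id3, an inhibitor of basic helix-loop-helix factors. Their log2 ratios in control and TBL/RβKO were 3.18 and 1.78 for Mctp2, 2.20 and 1.19 for Arhgap6, 1.14 and 1.41 for Chrm3 and 1.13 and 1.17 for Id3.

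Each of these 4 genes was higher in Ppy cells than in double-positive cells. Mctp2 was at 64.9 and 46.0 CPM in double-positive cells, 7.17 and 13.4 in Sst cells and 175 and 151 in Ppy cells. Of the 304 control Mctp2 UMIs, 239 came from the 21 cells with Ppy at 1500 or more. Without those cells Mctp2 stood at 20.4 and 36.8 CPM and Chrm3 at 103 and 236. In cells under 6000 genes 1 of 6655 genes was past 2-fold higher in both libraries, and in cells with Sst at or above Ppy none of 6798 was. The next genes in rank were Limch1 (2.03 and 0.83), Pid1 (0.78 and 1.63), Ugt2b34 (1.68 and 0.72), the activity-regulated gene Arc (0.65 and 0.78) and Pappa2 (1.27 and 0.65), a protease of insulin-like growth factor binding proteins.

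The 3 lower genes were Apoe, Ccl5 and Tacr3. Apoe, an apolipoprotein made in quantity by macrophages, was at 23.5 and 4.62 CPM in double-positive cells and 158 and 32.5 in Sst cells (log2 ratios -2.75 and -2.81). Ccl5, a chemokine, was at 1.28 and 0.809 against 135 and 2.44 CPM (-6.72 and -1.59). In the non-endocrine barcodes Apoe was at 4203 and 2739 CPM and Ccl5 at 2171 and 690. Scrublet marked 1 of 92 control and 3 of 162 TBL/RβKO Sst cells, beside 0 and 8 double-positive cells. Without the marked cells, the Apoe ratio in control was 1.33 and the Ccl5 ratios were 0.30 and 1.76. In control this change thus came from 1 Sst cell. None of the 3 genes then remained past the fold in both libraries. Tacr3, the neurokinin B receptor, was at 12.2 and 15.6 against 26.6 and 31.5 CPM (-1.13 and -1.01) and was nearly absent from Ppy cells, at 0.375 and 0.469. The next genes below Sst cells, none of them past the fold in both libraries, were Rasgef1a (-1.09 and -0.93), Sntg2 (-0.93 and -0.89), Caly (-0.83 and -0.89), mt-Nd6 (-0.87 and -0.83), Luzp2 (-1.04 and -0.83), the transcription factor Mef2c (-1.13 and -0.83) and the imprinted gene Peg10 (-1.94 and -0.82).

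**Figure D4:**
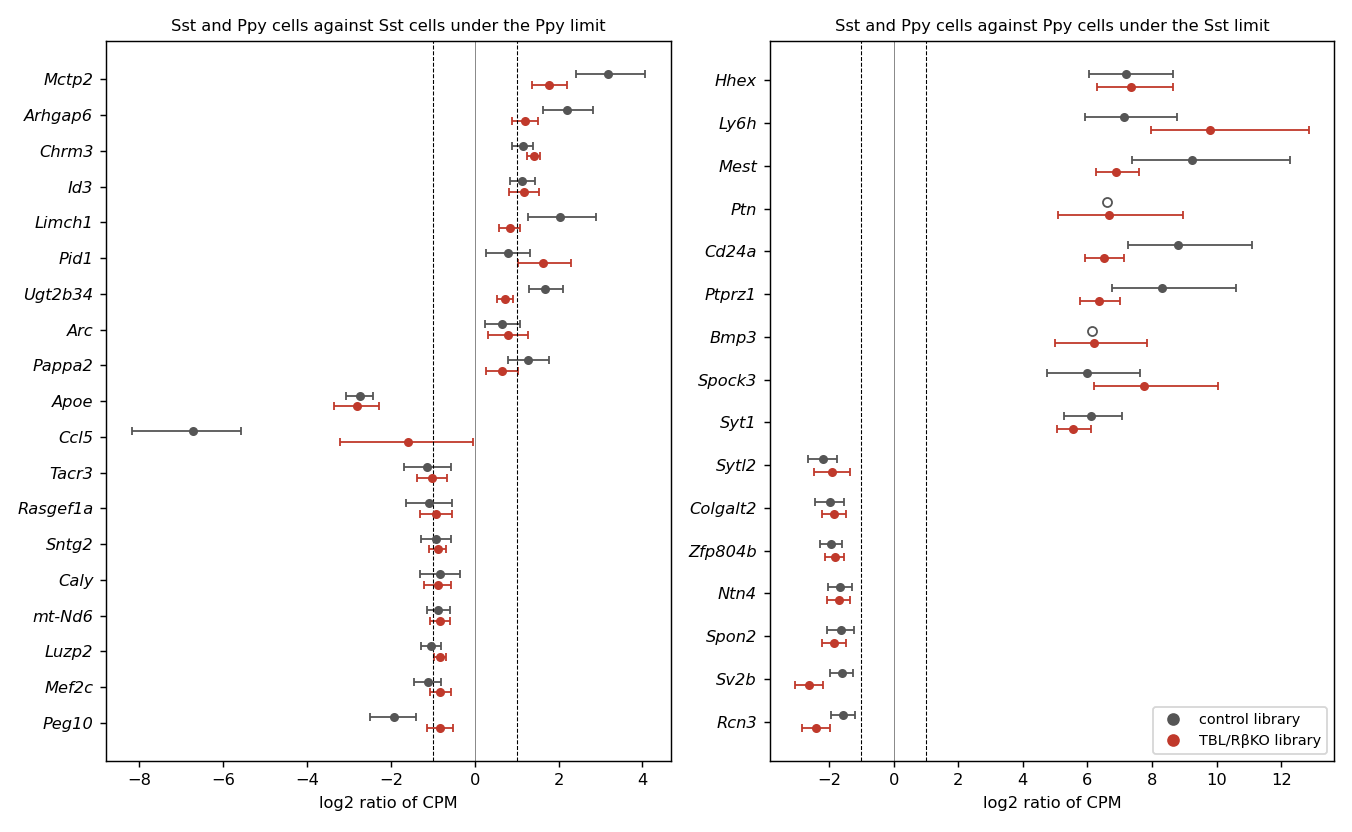
Log2 ratios of CPM in double-positive cells over Sst cells (left) and over Ppy cells (right), in the control (grey) and TBL/RβKO (red) library, for the named genes furthest apart in each direction, with exact binomial intervals and dashed lines at 2-fold. Open circles have 0 UMIs in the compared cells and are set against 3 counts. Ratios to Sst cells lie between -3 and 3 but for Mctp2 and Ccl5 in control, and those to Ppy cells reach past 5 for the higher genes.

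Gene groups were described by their medians, because with 0.0742% of all genes higher and 0.0445% lower a count of 0 in a short list says nothing about that list. Over all 98 listed genes 1 was higher and none lower. Of 8 δ-cell genes over the CPM filter none was past the fold against Sst cells in both libraries, with median log2 ratios of -0.38 and -0.16, beside -0.17 and -0.08 over all genes. Ptprz1 was at 180 and 230 CPM against 326 and 339, the ghrelin receptor Ghsr at 17.9 and 23.2 against 28.7 and 28.6, Isl1 at 341 and 332 against 432 and 382 and Pdx1 at 89.2 and 91.3 against 100.4 and 99.0. Of 6 PP-cell genes none passed (medians -0.29 and -0.17). Pyy was at 72948 and 65694 CPM in double-positive cells and already at 58544 and 61716 in Sst cells. Meis2 was at 1218 and 1214 against 1422 and 1309 CPM. After thinning, Meis2 had a UMI in 97.8% and 99.4% of Sst cells and in 85.5% and 86.3% of Ppy cells. Of 15 islet transcription factors, 7 β-cell genes, 6 α-cell genes, 10 granin and prohormone processing genes, 11 excitability genes, 3 other peptide genes and 5 corepressor genes none passed, and of 8 paracrine receptors only Chrm3 did. Neurog3, the endocrine progenitor factor, was at 51.4 and 46.5 CPM in double-positive cells and 74.8 and 58.9 in Sst cells. Of 10 immediate early genes, 6 heat shock genes, 8 ER stress genes and 1 cell cycle gene over the filter none passed either, and the medians of the first list were 0.28 and 0.13, with Fos at 1305 and 1102 against 987 and 963 CPM.

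Against Ppy cells the double-positive cells differed widely. Of 6092 genes 207 were 2-fold or more higher in both libraries (3.4%) and 49 lower (0.804%), and the all-gene median was 0.55 in control and 0.35 in TBL/RβKO, so that most genes held a larger share of UMIs in the double-positive cells, which held less Ppy. Taken alone, the control library gave 623 higher (10.2%) and 59 lower genes (0.968%) and the TBL/RβKO library 246 (4.04%) and 82 (1.35%). With hormones and mitochondrial genes left out of the total, every log2 ratio shifted by -0.56 and -0.34. More genes, 7816, then reached the mean of 20 CPM, and of these 145 were higher and 135 lower. Among the 10 genes furthest above Ppy cells were Hhex, Ly6h, Mest, Ptn, Cd24a, Ptprz1, Bmp3, Spock3 and Syt1. Hhex was 7.19 and 7.33 higher on the log2 scale and Ptprz1 8.32 and 6.35. Ly6h, a membrane-anchored modulator of nicotinic receptors, was at 133 and 211 CPM against 0.937 and 0.235, and the imprinted gene Mest at 226 and 280 against 0.375 and 2.35. Cd24a was at 251 and 266 against 0.562 and 2.93 CPM, Spock3 at 59.8 and 76.5 against 0.937 and 0.352 and the synaptotagmin Syt1 at 154 and 183 against 2.25 and 3.87. Ptn and Bmp3, encoding secreted growth factors, had 0 UMIs in control Ppy cells and were at least 6.60 and 6.15 higher there on the log2 scale, with 3 UMIs over all those cells as the floor. In TBL/RβKO they were 6.66 (5.10 to 8.95) and 6.21 (4.98 to 7.85) higher. These 9 genes were also present in Sst cells, at 31.8 CPM or more.

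Of 95 listed genes over the filter 14 were higher than in Ppy cells and 4 lower, beside 3.4% and 0.804% of all genes. Of 7 δ-cell genes 5 were past the fold above Ppy cells, with list medians of 4.82 and 4.76 beside 0.55 and 0.35 over all genes: Hhex, Rbp4 (4.82 and 4.76), Ptprz1, Spock3 (5.99 and 7.76) and Pdx1 (2.24 and 1.17). Ghsr had no UMI in Ppy cells of either library and fell under the filter there. Of 16 islet transcription factors 5 were higher and 1 lower, with Rfx6 at 2.61 and 1.32, Insm1 at 1.47 and 1.19 and Neurog3, at 0 UMIs in control Ppy cells, at least 6.52 and then 1.44, beside Hhex and Pdx1. The KATP channel subunit gene Abcc8 (1.04 and 1.48) was the 1 of 11 excitability genes to pass, Iapp, which encodes amylin, passed at 3.44 and 1.46. Of 6 PP-cell genes 1 was higher, Slitrk6 (2.45 and 3.13), and 1 lower, while Pyy (-0.58 and -0.54) was not past the fold. Dpp4 (1.37 and 1.43) and the ER gene Sdf2l1 (1.41 and 1.32) were also higher, as was Cela1 (5.43 and 6.43), which Sst cells held at 116 and 84.8 CPM.

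Among the genes furthest below Ppy cells were Sytl2, Colgalt2, Zfp804b, Ntn4, Spon2, Sv2b and Rcn3, with log2 ratios between -2.61 and -1.57. Among the 4 lower listed genes were Chrm3 (-1.26 and -1.08), transthyretin (Ttr, -1.15 and -1.19) and osteopontin (Spp1, -1.53 and -1.87). Of 5 α-cell genes over the filter 1 was higher (Dpp4) and 1 lower (Ttr). Mctp2, Arhgap6 and Chrm3 were past the fold both above Sst cells and below Ppy cells. Restricting the Ppy cells to those with Ppy at 1500 or more gave 462 higher genes of 5959 over the filter. Taking cells under 6000 genes gave 445 of 5953.

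Between the libraries, 104 of 6590 genes were 2-fold or more higher in TBL/RβKO double-positive cells (1.58%) and 17 lower (0.258%), with an all-gene median of 0.11. With hormones and mitochondrial genes left out of the total, every log2 ratio shifted by -0.13. More genes, 7782, then reached the mean of 20 CPM, and of these 100 were higher and 35 lower. With all UMIs in the total, the same 6590 genes gave 54 higher (0.819%) and 16 lower (0.243%) in Sst cells. In Ppy cells, a class whose Ppy levels differed between the libraries, they gave 479 higher (7.27%) and 23 lower (0.349%). The furthest higher genes were S100a6, a calcium-binding protein gene (10.9 against 204 CPM, log2 ratio 4.23, 3.82 to 4.66), the small heat shock protein gene Cryab (4.20) and Prkg2, a cyclic GMP-dependent kinase (2.56 against 39.3 CPM, 3.94, 3.12 to 4.91). They were followed by B3galt1 (3.12), Eps8 (3.12), the guanylate cyclase receptor Gucy2c (3.09), Akr1c14 (2.94), Adh1 (2.61), Rnf182 (2.55) and the axon guidance receptor Robo1 (2.52). In Sst cells the ratios of these genes, leaving out Cryab, lay between 1.56 for Rnf182 and 4.24 for Adh1.

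These higher genes sat mostly in the TBL/RβKO cells with many detected genes. Of 1761 S100a6 UMIs 1598 came from the 92 cells with 6000 genes or more, at 304 CPM against 48.1 in the other 173. Prkg2 was at 62.7 against 2.95 CPM, Eps8 at 174 against 18.9 and Akr1c14 at 63.9 against 5.31. Of the 340 Cryab UMIs 334 came from 3 cells with insulin at 50 or more. Double-positive cells with insulin at 50 or more (58 cells, median of 48300 UMIs) held Prkg2 at 101 CPM and the other 207 at 7.86. Insulin cells of the same library held S100a6 at 407 CPM, Prkg2 at 58.0, Eps8 at 187 and Akr1c14 at 116. In cells under 6000 genes 23 of 6549 genes were past the fold higher. There S100a6 had a ratio of 1.85 and Adh1 of 2.04, while Prkg2 (-0.54) and Cryab (-2.43) were lower in TBL/RβKO. The part of insulin cells or their RNA in these ratios was not tested.

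**Figure D5:**
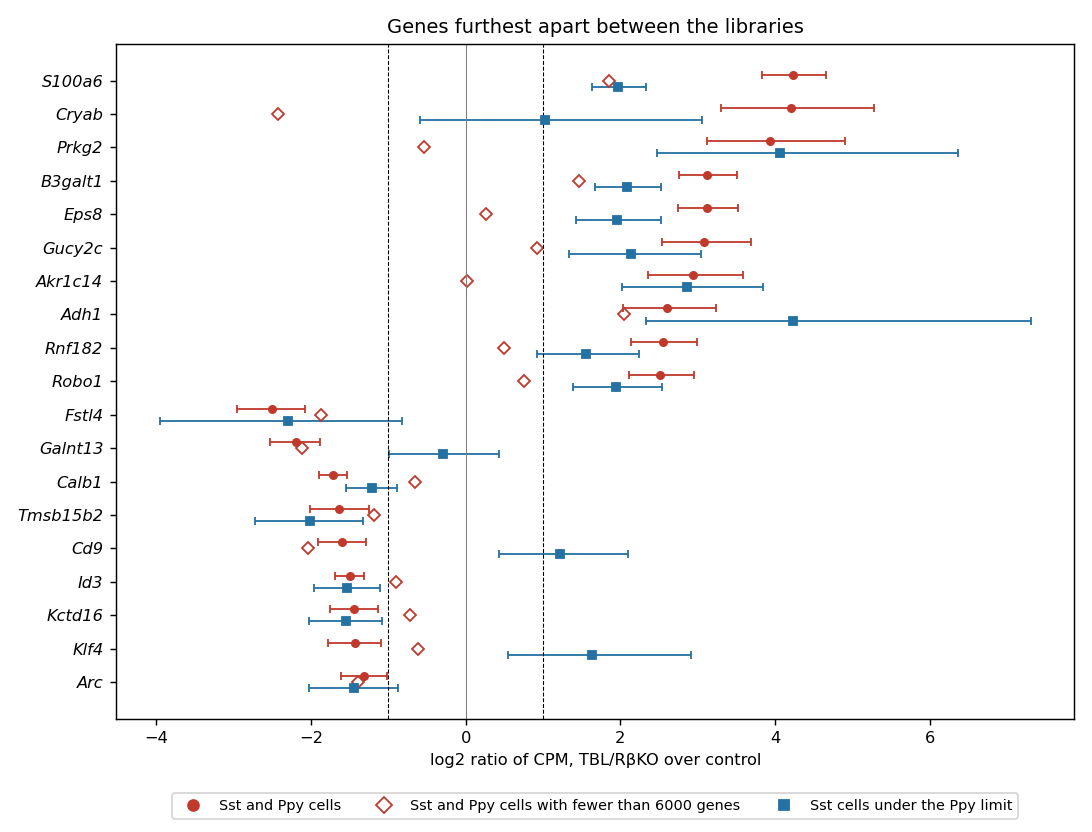
Log2 ratios of CPM in TBL/RβKO over control for the named genes furthest apart in each direction, in all double-positive cells (red circles, exact binomial intervals), in double-positive cells under 6000 genes (open diamonds) and in Sst cells (blue squares), with dashed lines at 2-fold. For the 10 higher genes the open diamonds all lie below the circles, and for Cryab and Prkg2 they lie below 0.

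Of 99 listed genes over the filter 6 were past the fold higher in TBL/RβKO and 1 was lower, beside 1.58% and 0.258% of all genes. The 6 fell to 1 in cells under 6000 genes and to 0 with the mean over cells of each cell's CPM. Besides Tbl1x and Tbl1xr1 the higher genes were the granin Chga (2796 against 6026 CPM, 1.11), the GLP-1 receptor gene Glp1r (63.4 against 198 CPM, 1.64), the prolactin receptor gene Prlr (15.8 against 35.7 CPM, 1.18) and the calcium channel gene Cacna1a (264 against 659 CPM, 1.32). In cells under 6000 genes Chga was at 3092 and 3081 CPM and Glp1r at 68.3 and 72.9, in control and TBL/RβKO. Cacna1a was then at 250.3 and 309 CPM, and Prlr at 20.5 and 5.61. None of 8 δ-cell genes was past the fold, with a list median of 0.10 beside 0.11 over all genes (-0.03 without hormones and mitochondrial genes in the total), and Hhex was lower in TBL/RβKO, at 133 against 164 CPM, within 2-fold. None of 5 α-cell genes, 10 immediate early genes, 7 heat shock genes or 8 ER stress genes passed. The β-cell factor Mafa, under the CPM filter, was at 16.0 CPM (75 UMIs) in control and 1.04 (9 UMIs) in TBL/RβKO double-positive cells, at 23.1 and 1.71 in Sst cells, at 14.6 and 0.822 in Ppy cells and at 511 and 161 in insulin cells. Non-endocrine barcodes held it at 48.6 and 24.4 CPM. With every cell thinned to 5000 UMIs, Mafa had a UMI in 8.0% and 1.51% of double-positive cells (39.3% and 3.40% unthinned, median UMIs 22360 and 23113) and in 15.1% and 2.55% of non-endocrine barcodes (36.1% and 6.91%, median UMIs 23128 and 22765). After thinning, the Mafa share in double-positive cells lay below that of non-endocrine barcodes in each library, with overlapping intervals. These were 4.20 to 13.6 and 9.99 to 21.4 in control and 0.413 to 3.82 and 1.03 to 5.17 in TBL/RβKO. Unthinned, the share was slightly higher in double-positive cells in control. Neither expression nor a difference between the groups is read from it, and the source of these UMIs was not tested. The neuropeptide gene Vip was also under the filter, with 48 UMIs in 3 cells in control (10.2 CPM) and 6 UMIs in 6 cells in TBL/RβKO (0.694 CPM).

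Among the furthest lower genes in TBL/RβKO were Fstl4 (-2.51), Galnt13 (-2.20), the calcium buffer gene Calb1 (-1.71), Tmsb15b2 (-1.63), the tetraspanin Cd9 (-1.60), Id3 (-1.50), Kctd16 (-1.44), Klf4 (-1.43) and Arc (-1.31). The number of cells with Ppy at 1500 or more differed as well, with 21 of 150 in control and 10 of 265 in TBL/RβKO. Of 286 control Galnt13 UMIs 241 lay in those 21 cells, and of 180 Klf4 UMIs 158. Those 21 cells were deep, with a median of 70069 UMIs against 22360 over all control double-positive cells. In the other double-positive cells Klf4 was at 6.89 and 7.67 CPM, Cd9 at 14.1 and 11.1, Calb1 at 98.9 and 43.9 and Id3 at 86.7 and 44.8. In Sst cells Calb1 (-1.22), Id3 (-1.54), Kctd16 (-1.55), Tmsb15b2 (-2.02) and Arc (-1.44) were past the fold in the same direction, as was Fstl4 (-2.29, from 14 and 6 UMIs), whereas Cd9 (1.22) and Klf4 (1.63) were higher in TBL/RβKO. In Ppy cells Calb1 (-1.17), Id3 (-1.23), Galnt13 (-1.03) and Fstl4 (-1.82) were past the fold.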

How the data were processed

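Single-cell RNA sequencing covered 1 control and 1 TBL/RβKO library of pooled islets. The authors deposited raw UMI counts per gene and barcode, made with Cell Ranger 7.1.0, and the submitters' processing notes name GRCm39 (mm39). Deposited barcodes numbered 7067 in control (241434108 UMIs) and 5833 in TBL/RβKO (185062206 UMIs), each with at least 500 UMIs. The study's upper limit of 6000 genes was not applied, and doublets were scored with Scrublet (scanpy 1.11.5) but not removed.

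UMIs were summed over the cells of each class and library and given as CPM of all UMIs with exact Poisson intervals. Log2 ratios had exact conditional binomial intervals, shares Clopper-Pearson intervals and differences of shares Newcombe intervals. Genes with a mean of 20 CPM or more over the sums compared were counted when the log2 ratio was at least 1 or at most -1, in both libraries for comparisons within a library. A class at 0 UMIs was set to 3 counts over the class. No p-value was computed, since each group had 1 library.

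Named were the listed genes and, for each comparison, the 10 with the largest ratio in each direction (by the smaller of both libraries), without the hormones of the rule; some genes that met this rule are not reported here. Members and lists were chosen with earlier results of these data known. Calculations, tested on simulated data, used Python 3.11.15, numpy 2.4.6, scipy 1.17.1 and pandas 2.3.3. Gene positions came from GENCODE on GRCm39. UMIs from overlapping genes could not be checked.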

Additional observations from a re-analysis of the deposited data

Results flagged for a closer look

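Cre had 8 UMIs on its coding strand in double-positive cells of the TBL/RβKO library and 0 in control. They lay in 4 cells, all among the 75 with Ppy above Sst, where Cre was at 2.31 CPM. Of the 8 UMIs 7 lay in 3 cells with insulin at 50 or more per 10000. The non-endocrine barcodes of the same library held 12 UMIs, at 1.41 CPM against 0.925 in double-positive cells, in 2.18% of barcodes against 1.51%.

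Some listed genes went opposite ways in the 2 libraries, with both intervals off 0, and the difference between libraries was not tested for any of them. Against Sst cells, log2 ratios in control and TBL/RβKO were -0.50 and 0.44 for Ero1b, -0.75 and 0.36 for Prlr, -0.16 and 0.56 for Chga, -0.52 and 0.51 for the proconvertase Pcsk1 and -1.72 and 0.64 for the peptide gene Npy. Against Ppy cells they were 0.56 and -0.50 for Prlr, 0.92 and -0.46 for Chga, 0.81 and -0.81 for Pcsk1, 5.05 and -4.76 for gastrin (Gast), 0.55 and -0.36 for Cacna1a and 0.63 and -0.11 for the ductal gene Krt7. Gast was at 6.19 and 5.55 CPM in double-positive cells, and its turn came from the compared Ppy cells, at 0.187 CPM (1 UMI) in control and 150 in TBL/RβKO. Leaving hormones and mitochondrial genes out of the total shifted log2 ratios by 0.16 and 0.07 against Sst cells. Against Ppy cells the shifts were -0.56 and -0.34. In control these shifts were about as large as the ratios of Chga against Sst cells and of Prlr and Cacna1a against Ppy cells. The opposite directions of those ratios thus depend on the total used. The Ppy cells also differed between the libraries in their Ppy levels.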

How the results depend on the processing

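Results were recomputed under 13 alternatives, 4 of them chosen after seeing the data. Leaving out a replicate was not possible with 1 library per group. No paired analysis was possible because the groups share only 1 replicate number and no test was run. Of 979 alternative values of named genes 958 kept their direction, and of 390 of list medians 340 kept their sign. Subtracting the non-endocrine median from the hormones changed no share by more than its interval and no count of genes by over 1.5 times. Where a value moved, the cause was not tested beyond the change in cells or genes that the alternative makes. Depth limits genes under 20 CPM: a class of 92 to 265 cells had a floor of 3 counts at 0.347 to 1.54 CPM.

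In the order used below, the counts are genes past the fold against Sst cells, against Ppy cells and in TBL/RβKO over control. Listed genes are those of the gene lists. The number of genes over the CPM filter differed between alternatives. The share of Sst cells is that of double-positive cells among all cells with Sst at its limit and insulin and glucagon under theirs. With fewer than 6000 detected genes, 1 gene was higher against Sst cells, 445 against Ppy cells and 23 in TBL/RβKO, Tbl1x was at 0.22 and Tbl1xr1 at 0.47, and 0 listed genes were higher against Sst cells, with 1 higher and 2 lower in TBL/RβKO. Pappa2 in control against Sst cells turned to -0.39 there, and in TBL/RβKO over control Cryab to -2.43 and Prkg2 to -0.54. Without the highest Scrublet scores 0 genes were lower against Sst cells, Apoe in control turned to 1.33, Ccl5 to 0.30 and 1.76 and Cryab to -1.15. With both hormone limits doubled, the share of Sst cells was 46.2% in control and 45.3% in TBL/RβKO, 1 gene was higher against Sst cells and 28 lower in TBL/RβKO, Tbl1x was at 0.96, and 0 listed genes were higher against Sst cells and 2 lower in TBL/RβKO. With an Sst limit of 400, 0 genes were higher and 0 lower against Sst cells, 78 lower against Ppy cells and 32 higher and 8 lower in TBL/RβKO, Tbl1x was at 0.30 and Tbl1xr1 at 0.56, 0 listed genes were higher against Sst cells, and 0 higher and 2 lower in TBL/RβKO. Pappa2 in control turned to -0.43, Cryab to -0.81 and Klf4 to 0.36.

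With hormones and mt- genes left out of the total, every log2 ratio shifted by 0.16 and 0.07 against Sst cells, -0.56 and -0.34 against Ppy cells and -0.13 in TBL/RβKO over control. Then 8 of 7774 genes were higher against Sst cells, 135 of 7816 lower against Ppy cells and 35 of 7782 lower in TBL/RβKO. Tbl1x was at 0.97, and 9 listed genes were higher and 10 lower against Ppy cells. With the mean over cells, 2 genes were higher against Sst cells, 74 lower against Ppy cells and 46 higher in TBL/RβKO, Tbl1x was at 0.68 and Tbl1xr1 at 0.82, and 0 listed genes were higher against Sst cells or in TBL/RβKO. With a mean of 10 CPM or more, 14 genes were higher and 8 lower against Sst cells, 328 higher against Ppy cells and 39 lower in TBL/RβKO, and 2 listed genes were higher against Sst cells. With no CPM filter, genes with 3 UMIs or more over the sums compared were counted, and a class at 0 UMIs was set to 3 counts. Then 58 genes were higher and 556 lower against Sst cells, 924 and 268 against Ppy cells and 823 and 535 in TBL/RβKO. Listed genes were at 3 and 5, 24 and 10, and 28 and 10. These counts include genes with as few as 3 UMIs, and the sums of Sst cells held fewer UMIs than those of double-positive cells.

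The following alternatives were chosen after seeing the data. With Sst at or above Ppy only, the share of Sst cells was 54.0% in control and in TBL/RβKO, 0 genes were higher against Sst cells, 77 lower against Ppy cells and 47 higher and 10 lower in TBL/RβKO, Tbl1x was at 0.48 and Tbl1xr1 at 0.78, and 0 listed genes were higher against Sst cells or in TBL/RβKO. Pappa2 in control turned to -0.53, Cryab to -1.98 and Tmsb15b2 to 0.27. With 50000 UMIs or fewer, 1 gene was higher against Sst cells, 339 against Ppy cells and 38 in TBL/RβKO, Tbl1x was at 0.48 and Tbl1xr1 at 0.69, 0 listed genes were higher against Sst cells, with 1 higher and 2 lower in TBL/RβKO, and Pappa2 in control turned to -0.39 and Cryab to -1.45. With fewer than 6000 genes and Sst at or above Ppy, the share was 50.9% and 53.0%, 0 genes were higher against Sst cells, 455 higher and 76 lower against Ppy cells and 23 higher in TBL/RβKO, Tbl1x was at 0.12 and Tbl1xr1 at 0.28, 0 listed genes were higher against Sst cells, and 0 higher and 3 lower in TBL/RβKO. Ccl5 in TBL/RβKO turned to 0.20, Id3 in control to -0.038, Pappa2 in control to -0.37, Cryab to -2.46, Eps8 to -0.17 and Prkg2 to -0.23. With Ppy cells at 1500 or more, 462 of 5959 genes were higher than in them.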
